A study of Homo sapiens with 4 samples.

Results

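The genes described here encode the proteasome, in KYSE170 cells, a human line from an oesophageal squamous cell carcinoma, left untreated or given EDHB. They are the protein-coding genes whose symbol is PSMA, PSMB, PSMC, PSMD or PSME followed by a number, read with probe sets annotated to exactly 1 gene. RefSeq lists 43 such genes, and 37 of them were measured, out of 19751 genes in all. The other 6, PSMA6, PSMB11, PSMC5, PSMD7, PSMD13 and PSME2, had no probe set annotated to them alone and were not analysed here. The measured genes had 69 probe sets, with 1 to 4 per gene, and the brightest represented each gene.

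The proteasome degrades proteins tagged with ubiquitin. Its 20S core is a barrel of alpha rings, encoded by PSMA genes, around beta rings, encoded by PSMB genes, in which PSMB5, PSMB6 and PSMB7 cut peptide bonds. Interferon-exposed cells replace these by the immune forms PSMB8, PSMB9 and PSMB10, which changes the peptides offered to MHC class I. The 19S particle caps the core. Its PSMC ATPases unfold substrates and some of its PSMD subunits bind the ubiquitin chain or cut it off. The PSME proteins are other caps, and the transcription factors NRF1 (NFE2L1) and NRF2 (NFE2L2) are known to drive subunit genes under stress.

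Biotin-labelled copies of total RNA were read on Affymetrix expression arrays, 2 arrays of untreated cells and 2 of cells exposed to EDHB at 50 µg/ml for 12 h. EDHB, ethyl-3,4-dihydroxybenzoate, is an ester of protocatechuic acid that inhibits the prolyl hydroxylases of oxygen sensing. The study asked how the expression profile differed after the compound. Both groups are the same cell line grown in the same medium with serum, no vehicle is named for the untreated cells, and nothing in the labels says that the replicates were separate cultures, so p-values measure only the spread between these arrays.

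The replicate 2 columns of the deposited table stood in another row order than the probe set names. Between the 2 EDHB arrays Pearson's r over probe sets was 0.418 in the deposited order and 0.997 once the order was restored from the untreated levels. The restoring succeeded for 99.7% of all probe sets and for each of the 69 described here. Replicate 1 did not need it, so its change is given beside that of replicate 2. Median linear intensities were 23.3 to 23.5, and precision is limited by having only 4 arrays. The samples are bulk RNA, in which fewer cells with a transcript and less of it per cell cannot be told apart. Levels below are log2 intensities, a log2 change is EDHB minus untreated, and its standard error comes from limma over all genes. A level under 4.54, the median probe set, is taken here as not above background. Of the squamous epithelium markers 6 of 7 measured lay above it, as did 0 of 4 leukocyte markers and 2 of 6 fibroblast and endothelium markers.

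The stretch of genome beside PSMB9, which had the lowest p among the brightest probe sets of the subunit genes, is shown first. PSMB9 (chr6:32854192-32859851, GRCh38.p14, plus strand) and TAP1 (chr6:32845209-32853704, minus strand), which encodes a subunit of the peptide transporter of antigen presentation, start head to head in the MHC region with 487 bases between them. Both had higher levels on both EDHB arrays, with values given further on. The 250 bases before each start, from RefSeq, together cover this gap and share 13 bases at its middle. The TAP1 stretch (chr6:32853705-32853954, minus strand) is written with the interferon-stimulated response element core (GAAA, any 2 bases, GAAA) in capitals, here on the other strand and in 2 overlapping copies. The PSMB9 stretch (chr6:32853942-32854191, plus strand) has in capitals the antioxidant response element core TGACNNNGC and the hypoxia response element core ACGTG, both on the other strand. The 100 bases before PSMB10 (chr16:67936851-67936950, minus strand), an immune form whose groups overlapped, hold the same interferon core and are shown for contrast.
TAP1: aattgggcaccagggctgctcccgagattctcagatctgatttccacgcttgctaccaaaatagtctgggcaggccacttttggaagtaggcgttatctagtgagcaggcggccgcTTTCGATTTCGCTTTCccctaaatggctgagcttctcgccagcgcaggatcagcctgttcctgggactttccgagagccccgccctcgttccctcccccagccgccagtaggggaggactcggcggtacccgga
PSMB9: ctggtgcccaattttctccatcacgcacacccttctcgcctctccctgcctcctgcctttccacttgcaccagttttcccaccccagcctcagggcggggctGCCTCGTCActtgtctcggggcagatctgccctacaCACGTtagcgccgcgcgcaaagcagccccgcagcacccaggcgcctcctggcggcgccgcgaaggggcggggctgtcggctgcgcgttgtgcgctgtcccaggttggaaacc
PSMB10: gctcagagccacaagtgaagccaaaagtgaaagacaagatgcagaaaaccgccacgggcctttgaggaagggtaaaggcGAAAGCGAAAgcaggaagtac

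Windows of 300 bases, from 250 before to 50 after a gene's start, were at hand for 38 of the 43 subunit genes and were searched on both strands. PSMA7, PSMB1, PSMB6, PSMB7 and PSMD4 were not among them. The interferon core stood in the windows of 6 subunit genes, in 13.3% of subunit windows and 3.57% of all 35116 windows. Those 6 genes were PSMA4, PSMB4, PSMB8, PSMB10, PSME1 and PSME2. The antioxidant core stood in the windows of 13 subunit genes, in 28.9% of subunit windows and 13.3% of all windows. The hypoxia core stood in 22.2% of subunit windows and 21.4% of all, the CCAAT box in 42.2% and 34.6%, and the STAT site TTCNNNGAA in 17.8% and 7.66%. The antioxidant and hypoxia cores marked at PSMB9 both stood in the windows of PSMB3, PSMD5 and PSMD9 too. PSMD5 and PSMD9 were lower on both EDHB arrays, and the groups of PSMB3 overlapped. A link between cores and changes was not tested. A match describes the letters and is not a shown binding site.

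On the brightest probe set of each gene most proteasome genes differed little between the groups, and the change of the immune form PSMB9 had the largest size. In limma with Benjamini-Hochberg adjustment over all genes, 0 of the 37 measured members passed, where 0.0101% of all genes did. At an unadjusted p under 0.05 there were 2, PSMB9 (higher) and PSMD5 (lower), or 5.41% of members beside 16.8% of all genes. The fit with an intensity trend in the prior variance also called 0 members, beside 1.9% of all genes, with 1 member higher and 3 lower at its unadjusted p under 0.05, beside 9.65% and 8.65% of all genes. The median change over the members was -0.02, -0.01 within replicate 1 and 0.00 within replicate 2, and over all genes it was -0.001. For 29 members the change was under 0.1 log2 units in size. For 31 of the 37 the 95% interval of the log2 change lay between -0.32 and 0.32, which held for 33.8% of all genes. The members were brighter, with 36 of 37 above the median probe set, beside 12400 of all 19751 genes. Genes of like intensity were not compared. The arrays of the 2 groups did not overlap for 13 members, or 35.1%, beside 45.8% of all genes. Of these 5 were higher and 8 lower, where 23.2% and 22.5% of all genes were.

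**Figure D1:**
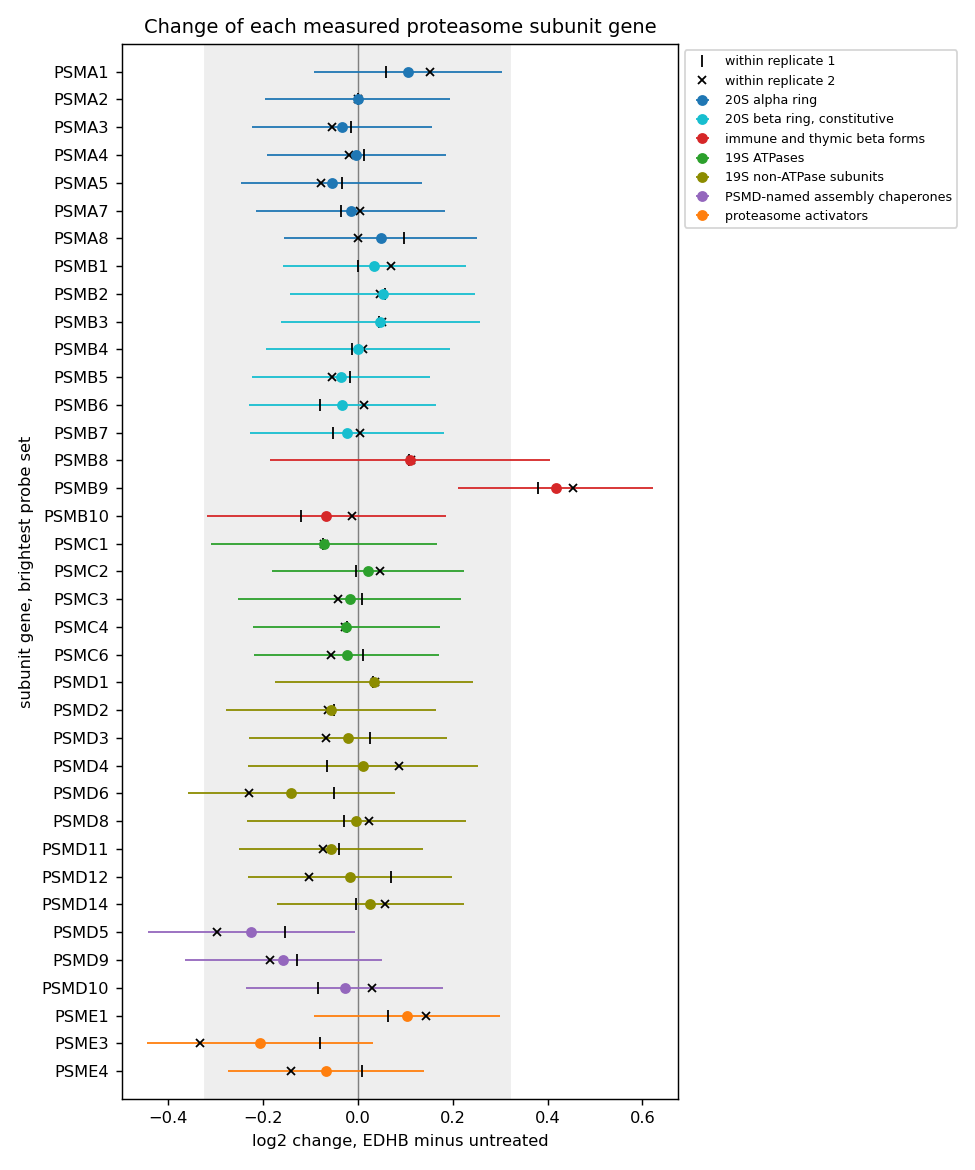
Log2 change (EDHB minus untreated, horizontal axis) of the 37 measured subunit genes, coloured by class. Points are the limma estimates, bars their 95% intervals, ticks and crosses the changes within replicates 1 and 2, and the grey band spans -0.32 to 0.32. PSMB9 stands apart at 0.42, while 31 intervals stay inside the band.

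In the alpha ring, which gates the core, 7 genes were measured and their changes ran from -0.05 to 0.11 (median -0.003). PSMA1 was the most positive, at 11.36 and 11.35 in untreated replicates 1 and 2 and at 11.42 and 11.51 in the EDHB ones. Its EDHB arrays lay above both untreated arrays, by a change of 0.11 ± 0.08 (SE, n = 2 and 2) that did not pass in limma (adjusted p = 0.563), and its 2 further probe sets gave 0.08 and 0.06. PSMA5 was the most negative, at -0.05 ± 0.07 (SE). PSMA8, the testis form of the ring, lay at 1.55 to 1.65 on the arrays, which is under the median probe set. The remaining alpha genes, PSMA2, PSMA3, PSMA4 and PSMA7, lay within 0.04 of no change.

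The constitutive beta ring was as even. Its 7 members had changes from -0.04 to 0.05 and a median of 0.0003. PSMB5, the chymotrypsin-like subunit, had 11.07 and 11.10 in untreated and 11.06 and 11.04 in EDHB replicates 1 and 2. PSMB6, the caspase-like subunit, had 11.68 and 11.60, then 11.60 and 11.62. PSMB7, the trypsin-like subunit, had 11.85 and 11.76, then 11.80 and 11.77. The groups of PSMB6 and PSMB7 overlapped, and those of PSMB5 were separated by less than the gap between its own untreated arrays. Their changes were -0.04 ± 0.07, -0.03 ± 0.08 and -0.02 ± 0.08 (SE, n = 2 and 2), with 95% intervals from -0.22 to 0.15, -0.23 to 0.16 and -0.23 to 0.18. PSMB1 to PSMB4, which do not cut, lay between 0.00 and 0.05.

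Of the 3 immune forms measured 0 passed in limma, and PSMB9 was the 1 with an unadjusted p under 0.05. PSMB9 (beta1i, also LMP2; probe set 204279_at), which takes the place of PSMB6, had 7.56 and 7.59 in untreated replicates 1 and 2. Its EDHB levels were 7.94 and 8.04, both above both untreated arrays. It was 1.34-fold higher, by 0.42 ± 0.08 log2 units (SE, n = 2 and 2; 95% interval 0.21 to 0.62), and by 0.38 and 0.45 within replicates 1 and 2. In limma over all genes this did not pass (adjusted p = 0.141, and 0.0564 with the intensity trend). With dim probe sets removed it passed at an adjusted p of 0.0493. In limma over the other settings with all 4 restored arrays its adjusted p ran from 0.0564 to 0.278. Without any 1 array its change ran from 0.367 to 0.467. With the rows in the deposited order, where replicate 2 is misplaced, the change was 0.0499 and did not pass. PSMB9 has 1 probe set on the array.

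PSMB8 (beta5i, LMP7), the partner of PSMB5, had 8.32 and 8.12 in untreated and 8.43 and 8.23 in EDHB replicates 1 and 2. The groups overlapped because both replicate 2 arrays were lower, although the change within each replicate was 0.11. Its fitted change of 0.11 ± 0.12 (SE) had a 95% interval from -0.19 to 0.41, which holds both 0 and the lower bound of the PSMB9 interval. PSMB10 (beta2i, MECL1), the partner of PSMB7, had 8.91 and 8.72, then 8.79 and 8.71, and a change of -0.07 ± 0.10 (SE; interval -0.32 to 0.19). PSMB8 lies beside TAP1 in the MHC region (chr6:32840717-32844679), and PSMB10 lies elsewhere (chr16:67934506-67936850).

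The log2 ratio of each immune form to its partner changed by 0.45 for PSMB9 over PSMB6 (0.46 and 0.44 within replicates 1 and 2), by 0.15 for PSMB8 over PSMB5 (0.13 and 0.17) and by -0.04 for PSMB10 over PSMB7 (-0.07 and -0.02). Over these 3 pairs an exact two-sided permutation test of the arrays gave p = 0.333, 0.667 and 0.667, each 0.667 after Benjamini-Hochberg adjustment. With 2 arrays against 2 it cannot go below 0.333.

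**Figure D2:**
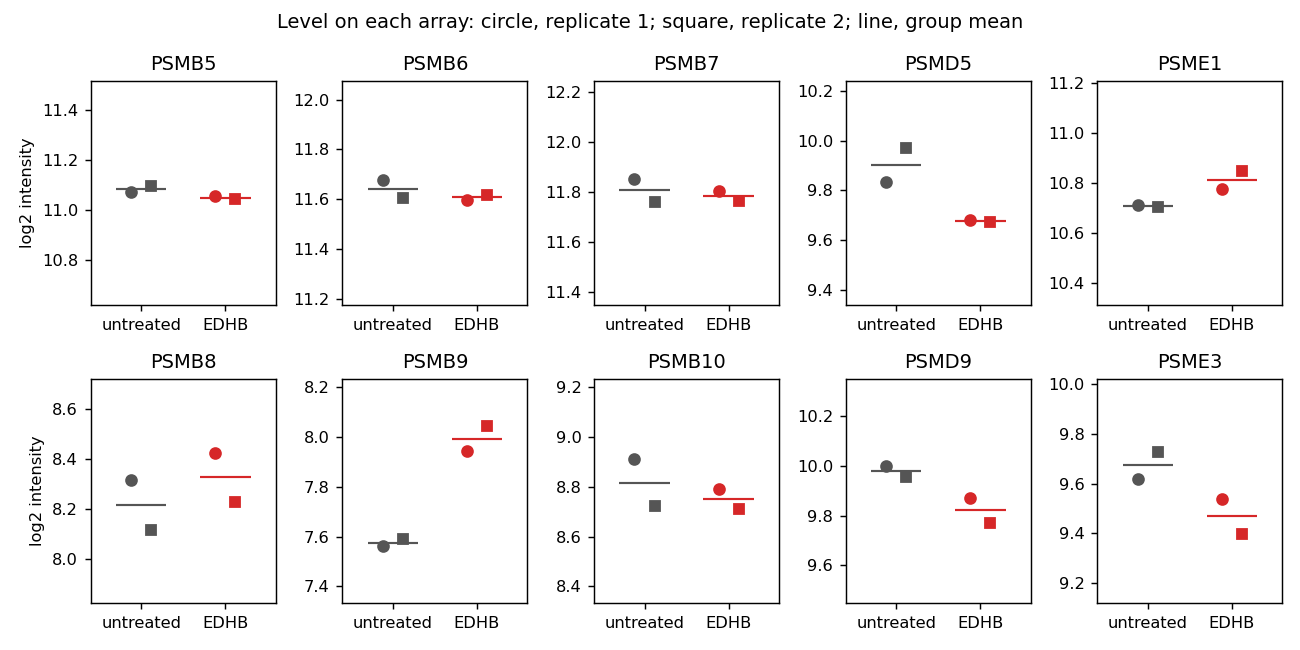
Log2 intensity on each array for the catalytic beta genes PSMB5 to PSMB7, their immune forms PSMB8 to PSMB10, and PSMD5, PSMD9, PSME1 and PSME3. Circles are replicate 1, squares replicate 2, lines group means, and each panel spans the same range of 0.9 log2 units. Only in the PSMB9 panel of the 6 beta panels do the EDHB arrays lie clearly above the untreated ones.

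The 19S ATPases, the ring that unfolds substrates, ran from -0.07 to 0.02 over 5 measured genes (median -0.02). On their brightest probe sets the groups were separated in 0 of them. PSMC1 led by size, with 10.90 and 10.77 in untreated and 10.83 and 10.70 in EDHB replicates 1 and 2. It was lower by 0.07 within each replicate, less than the gap between the replicates, and its change was -0.07 ± 0.09 (SE). PSMC2, PSMC3, PSMC4 and PSMC6 lay within 0.03 of no change. The dimmer PSMC2 probe sets 201067_at and 238020_at gave -0.13 and -0.18, both lower without overlap, with 238020_at under the median probe set.

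Of the 19S non-ATPase subunits 9 were measured, with changes from -0.14 to 0.03 and a median of -0.02. PSMD6 (Rpn7), a lid subunit, led by size. Its untreated levels were 10.68 and 10.73 and its EDHB levels 10.63 and 10.50, both below. The change was -0.14 ± 0.08 (SE, adjusted p = 0.484 in limma), with -0.05 and -0.23 within replicates 1 and 2. The ubiquitin receptor PSMD4 (Rpn10) and the deubiquitinase PSMD14 (Rpn11), which cuts off the chain, changed by 0.01 ± 0.09 and 0.03 ± 0.08 (SE). PSMD2 (Rpn1), the docking subunit of the base, changed by -0.06 ± 0.09 and PSMD1 (Rpn2), its scaffold, by 0.03 ± 0.08 (SE).

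All 3 PSMD genes whose products are chaperones of 19S assembly, not subunits of the finished particle, had negative changes (median -0.16). Of the 37 measured members 24 had a negative change, beside 9971 of all 19751 genes. PSMD5 (S5b), which holds the ATPases PSMC1 and PSMC2 during assembly, had 9.83 and 9.97 in untreated and 9.68 and 9.67 in EDHB replicates 1 and 2. Both EDHB arrays lay below both untreated ones, by -0.22 ± 0.09 (SE, n = 2 and 2; adjusted p = 0.287 in limma) and by -0.15 and -0.30 within replicates 1 and 2. Its other probe set, at 2.51 to 2.82, was dimmer than the median probe set. PSMD9 (p27) had 10.00 and 9.96, then 9.87 and 9.77, also without overlap, by -0.16 ± 0.08 (SE, adjusted p = 0.411). PSMD10 (gankyrin) had 10.85 and 10.74, then 10.77 and 10.77, with overlapping groups and a change of -0.03 ± 0.08 (SE). Within replicates 1 and 2 it changed by -0.08 and 0.03, in opposite directions.

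The activators went different ways, and none passed. PSME1 (PA28 alpha), an interferon-induced cap that speeds peptide release, had 10.71 and 10.70 in untreated and 10.78 and 10.85 in EDHB replicates 1 and 2. It was higher on both EDHB arrays, by 0.10 ± 0.08 (SE, adjusted p = 0.563 in limma). PSME3 (PA28 gamma), the nuclear cap, had 9.62 and 9.73, then 9.54 and 9.40, which is -0.21 ± 0.09 (SE, adjusted p = 0.354). Its change was -0.08 within replicate 1 and -0.33 within replicate 2, and its 3 further probe sets gave -0.04, 0.06 and -0.09 within replicate 1 and -0.38, -0.31 and -0.55 within replicate 2. The size of the PSME3 difference thus came from the replicate 2 pair on all 4 probe sets. PSME4 (PA200), the large single-chain cap, had 9.42 and 9.51, then 9.43 and 9.37, a change of -0.07 ± 0.08 (SE) with overlapping groups. Its dimmer probe sets 212222_at and 212220_at gave -0.18 ± 0.11 and -0.31 ± 0.15 (SE), both lower without overlap.

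Of the 69 probe sets, 32 were further probe sets of 20 genes, and 25 of these lay above the median probe set. When each probe set was tested on its own, 0 of the 69 passed in limma, beside 0% of the 40964 probe sets with 1 gene, and 5 had an unadjusted p under 0.05 beside 14.9% of all. The intensity trend called 0 of the 69 too, beside 0.354%. The groups did not overlap for 19 probe sets that were lower and 9 that were higher, where 43.8% of all probe sets had no overlap and 22.6% were lower without one. The 5 were PSMB9 (higher) and 4 further probe sets that were lower, of PSMD11, PSMD9, PSMA3 and PSMD12. PSMD5 was not among them. On the same probe set its unadjusted limma p was 0.0461 in the fit over genes and 0.0525 in this one.

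PSMD11 (Rpn6), a lid subunit known to limit how much capped proteasome assembles, had the largest difference of any subunit probe set, and only on the dimmer of its 2. On 208776_at the levels were 7.33 and 7.15 in untreated and 6.49 and 6.43 in EDHB replicates 1 and 2. Both EDHB arrays were lower by far more than the gap between replicates, by -0.78 ± 0.10 (SE, n = 2 and 2; 0.584-fold; adjusted p = 0.152 in limma, 0.0508 with the intensity trend). The brighter 208777_s_at had 11.02 and 10.996, then 10.98 and 10.92, a change of -0.06 ± 0.08 (SE). The difference between these probe sets was not tested, and which transcripts each one reads is not given in the sources used here.

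The values of the lower probe sets of PSMD9, PSMA3 and PSMD12 are given beside those of brighter ones, with no test between them. PSMD9 had 5.67 and 5.65 on 209334_s_at, then 5.10 and 5.33, a change of -0.45 ± 0.11 (SE, adjusted p = 0.209), where its brighter probe set gave -0.16, also without overlap. On 237300_at of PSMA3 the levels were 5.20 and 5.08, then 4.78 and 4.79, or -0.35 ± 0.09 (SE, adjusted p = 0.214), beside -0.03 on the brightest and 0.19 on another, below the median probe set. The change of PSMD12 (Rpn5) was -0.22 ± 0.08 on 202353_s_at (SE, adjusted p = 0.310) and -0.02 on its brighter probe set.

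**Figure D3:**
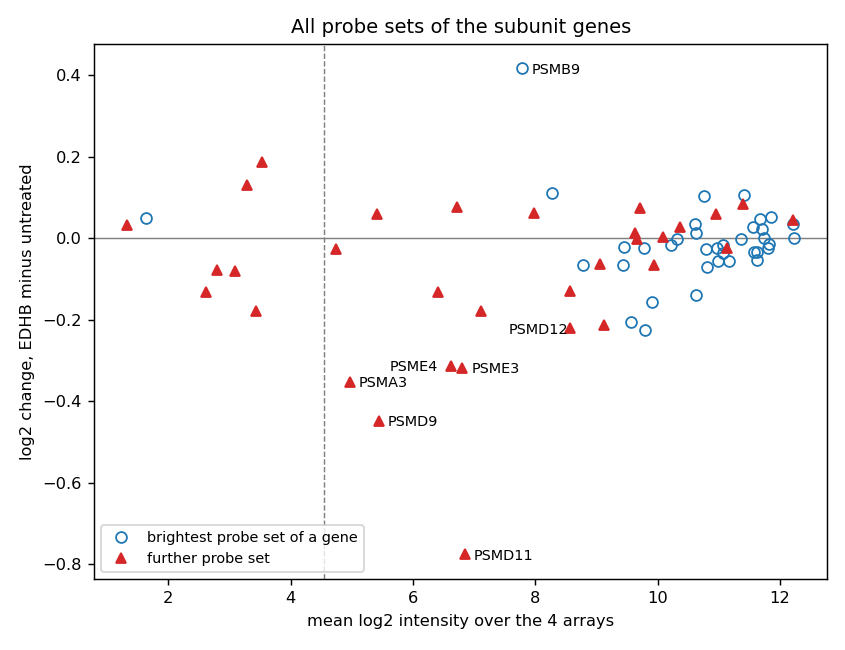
Log2 change against mean log2 intensity for all 69 probe sets of the subunit genes. Circles are the brightest probe set of each gene, triangles further ones, and the dashed line is the median probe set (4.54). Bright probe sets gather near 0, and the lowest triangle is the dimmer probe set of PSMD11 at -0.78.

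The genes around the proteasome were read from lists chosen for their role, with earlier results of these data known. Of 16 partners and assembly factors with other names, 0 were higher and 2 lower at an unadjusted p under 0.05, beside 8.81% and 7.98% of all genes, and 0 passed in limma. The list median was -0.10. PSMF1 (PI31), a binder of the core, had 8.51 and 8.66 in untreated and 8.34 and 8.26 in EDHB replicates 1 and 2. PSMG3, a chaperone of the alpha ring, had 10.09 and 10.12, then 9.86 and 9.85. Both were lower on both EDHB arrays, by -0.29 ± 0.09 and -0.24 ± 0.07 (SE), with adjusted p values of 0.234 and 0.222.

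In the NRF1 and NRF2 axis, 3 of 9 measured genes were higher and 1 lower at an unadjusted p under 0.05, and 0 passed (median 0.14); without any 1 array 1 to 2 had such a p. Over all genes 8.81% were higher and 7.98% lower at an unadjusted p under 0.05. NFE2L1, which encodes NRF1, had 9.11 and 9.07 in untreated and 9.31 and 9.34 in EDHB replicates 1 and 2. Its level was higher on both EDHB arrays, by 0.24 ± 0.07 (SE, adjusted p = 0.233), and neither of its 2 other probe sets changed the other way. NFE2L2, which encodes NRF2, changed by 0.14 ± 0.08 (SE, adjusted p = 0.450), and both of its 2 other probe sets went the other way. NGLY1, the glycanase that activates NRF1, had 8.47 and 8.43, then 8.26 and 8.21, lower by -0.21 ± 0.08 (SE, adjusted p = 0.263). BACH1, a repressor at antioxidant elements, changed by 0.48 ± 0.10 (SE, adjusted p = 0.144), with 1 of 2 other probe sets going the other way. MAFF, a small partner of both factors, changed by 0.57 ± 0.20 (SE, adjusted p = 0.257), with 0.96 within replicate 1 and 0.19 within replicate 2. Ubiquitin genes and shuttle factors had a median of 0.02. Of the 9 measured, 0 had an unadjusted p under 0.05, beside 16.8% of all genes.

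In class I antigen processing 5 of 16 measured genes were higher and 0 lower at an unadjusted p under 0.05. Over all genes these shares were 8.81% and 7.98%. Changes were positive for 9766 of all 19751 genes and for 15 of these 16 (median 0.18, 0.16 within each replicate). None passed in limma, and without any 1 array 2 to 3 had such a p. TAP1, the head-to-head neighbour of PSMB9, had 7.62 and 7.69 in untreated and 8.03 and 7.96 in EDHB replicates 1 and 2. It was higher by 0.34 ± 0.08 (SE; 1.27-fold; adjusted p = 0.160), by 0.41 and 0.28 within replicates 1 and 2. TAPBP (tapasin), which loads peptides, had 8.06 and 8.01, then 8.35 and 8.43, or 0.35 ± 0.08 (SE, adjusted p = 0.158). HLA-C, a class I heavy chain whose probes can be shared among HLA genes, had 10.27 and 10.23, then 10.53 and 10.43, or 0.23 ± 0.08 (SE, adjusted p = 0.263). For all 3 both EDHB arrays lay above both untreated ones. HLA-G and ERAP1 were the others counted, at 0.21 ± 0.08 and 0.20 ± 0.08 (SE, adjusted p = 0.289 and 0.292). Of 4 other ERAP1 probe sets 2 went the other way, and the mean of all its probe sets gave 0.0781. Probes of HLA-B, HLA-E, HLA-F and HLA-G can be shared too, so the counts above may repeat the same signal. NLRC5, the class I transactivator, lay at 4.00 to 4.17, dimmer than the median probe set.

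Changes were positive for 13 of 17 measured interferon signalling genes and negative for 4 (median 0.19), where 9766 of all 19751 genes were positive. At an unadjusted p under 0.05, 8.81% of all genes were higher and 7.98% lower. Of the 17, 0 passed in limma, and at that p 0 were lower and 6 higher. That number was 2 without untreated replicate 1, 0 without EDHB replicate 2 and 4 without either of the other arrays. OAS1, an antiviral enzyme, had 5.37 and 5.21 in untreated and 5.68 and 5.95 in EDHB replicates 1 and 2. GBP2, a guanylate-binding protein, had 4.99 and 5.09, then 5.31 and 5.79. JAK1, the kinase of the interferon receptors, had 10.03 and 9.87, then 10.28 and 10.29. These 3 did not overlap, with changes of 0.53 ± 0.13, 0.51 ± 0.17 and 0.33 ± 0.09 (SE) and adjusted p values of 0.167, 0.250 and 0.189. IRF1, a factor known to bind the gap between TAP1 and PSMB9, had 7.04 and 7.21, then 7.16 and 7.14, with overlapping groups and a change of 0.03 ± 0.09 (SE). The 4 negative changes were those of MX1 (-0.23 ± 0.17) and ISG15 (-0.02 ± 0.13), antiviral genes that interferon induces, of SOCS1 (-0.12 ± 0.10), which restrains the signal, and of the receptor chain IFNGR2 (-0.03 ± 0.10), each with overlapping groups. MX1 was dimmer than the median probe set.

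Leukocytes carry high levels of the immune forms. The summed linear intensity of the 4 measured leukocyte markers was 52.1 and 54.9 in untreated and 51.7 and 53.2 in EDHB replicates 1 and 2, with 0 of them above the median probe set. PTPRC (CD45) had 1.68 and 1.89, then 2.21 and 2.11, all below that level.

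**Figure D4:**
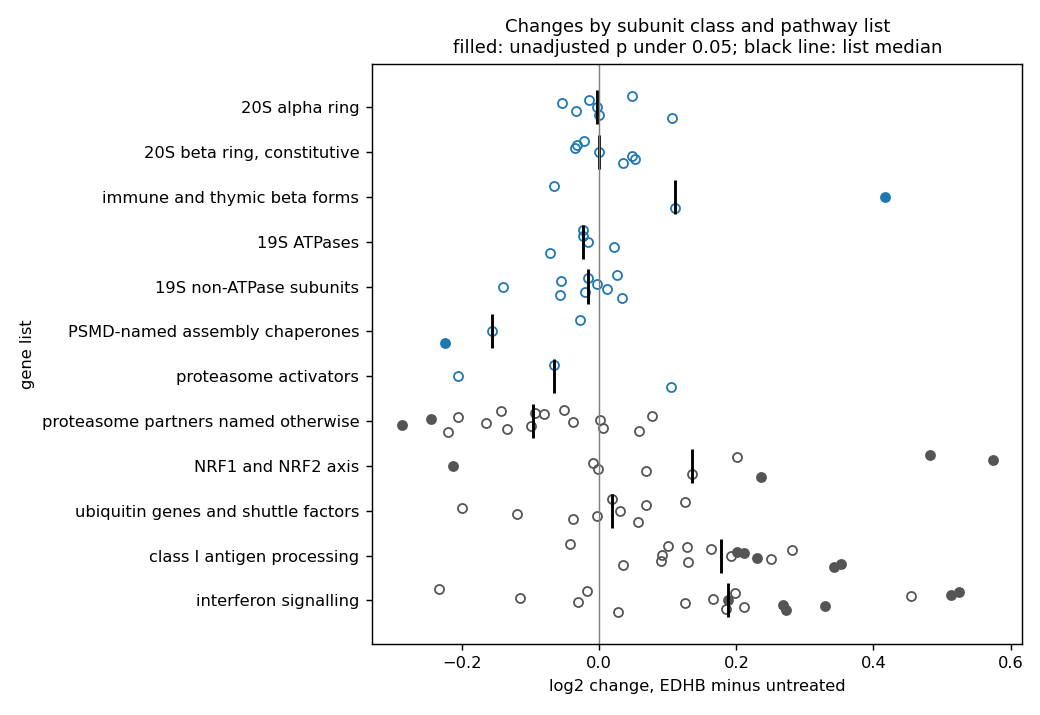
Log2 change of each measured gene by subunit class (blue) and by pathway list (grey). Filled points have an unadjusted p under 0.05 in limma and black lines are list medians. The 20S and 19S classes sit near 0, whereas class I antigen processing and interferon signalling have medians of 0.18 and 0.19. Classes and lists were chosen with earlier results of these data known.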

How the data were processed

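The deposited values are linear intensities, 1 for each probe set on each array. RMA is the method that the submitters' processing notes name, and its software and settings are not given in the sources used here. Because RMA equalises the distributions between arrays, a shift of all genes would not show. The log2 of the deposited intensity was used as it stood.

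The replicate 2 columns were put back in order by a forward-backward alignment. It assumes 1 sheet per replicate with a list of 148 probe sets at least 2-fold higher, a list of 45 lower and the rest, each in ID order. It compared untreated levels only, scoring each pair with Student's t (scale 0.15, 3 degrees of freedom). Rows with a posterior of at least 0.95 were kept (54459 of 54613). This layout was inferred. Matching on untreated levels favours small differences between the untreated arrays.

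Names came from GEO's platform annotation, updated by RefSeq gene identifier. Those with 1 gene numbered 41091, with several 1801 and with none listed 11721. Each gene took its brightest restored probe set. The test was limma 3.58.1 in R 4.3.3 (2 residual and 2.99 prior degrees of freedom), adjusted over 19751 genes at 0.05, with no block, and was tested on simulated data. The intensity trend, 2 scalings, a filter on dim probe sets, other probe set rules, a replicate block and leaving out each array were alternatives. Alignment and promoter search used Python 3.11.15. The members and lists were chosen with earlier results of these data known. Values by array are given for members with an unadjusted p under 0.05, the largest changes, the catalytic beta genes with their immune forms and the activators. In pathway lists at most 3 genes per direction with that p were named at first. Other HLA genes, ERAP1, NFE2L2, IRF1, NLRC5, the interferon genes with negative changes and the further probe sets were added after their values were seen.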

Additional observations from a re-analysis of the deposited data

How the results depend on the processing

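The number of subunit genes at an unadjusted p under 0.05, 2 as reported, was 4 with the intensity trend and 1 with cyclic loess or the replicate block, 0 with the rows as deposited, and from 1 to 2 without any 1 array; tested on their own, 5 probe sets had one. With dim probe sets removed 1 subunit gene, PSMB9, passed at an adjusted p of 0.0493, and 0 passed in every other setting tried. The replicate numbers are no stated pairing (same-numbered arrays deviated together at 0.215), and the block lowered the calls over all genes from 2 to 0. Those calls were 375 with the trend, 56 with arrays centred on their medians, 43 with cyclic loess, 426 with dim probe sets removed, 38 with the mean of all probe sets, and 0 with a posterior minimum of 0.5 and without any 1 array. The median of the activators was -0.186 with the mean of all probe sets. That of the immune forms, 0.111 as reported, was 0.0794 with centred arrays and ran from 0.0103 to 0.211 without any 1 array. The class I genes at an unadjusted p under 0.05 numbered 10 with the trend, 2 with centred arrays, 3 with the mean of all probe sets and 2 to 3 without any 1 array, and those of the NRF axis 2 with that mean and 1 to 2 without any 1 array. Without any 1 array the interferon genes numbered 0 to 4, the partners 0 to 2 and the ubiquitin genes 0 to 1. With rows as deposited PSMD9 turned to 0.301.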
